A study of Mus musculus with 9 samples.

Results

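The genes described here encode the integrin receptor chains and the basement membrane proteins of the laminin group in 3 mouse pluripotent cell lines. They are every gene with the platform annotation symbol of an integrin alpha or beta chain or of a laminin chain, together with Nid1, Nid2, Hspg2 (perlecan), Agrn (agrin) and Dag1 (dystroglycan). This gave 41 of the 19938 genes on the array: 18 integrin alpha chains, 8 integrin beta chains, 10 laminin chains, 2 nidogens, 2 heparan sulfate proteoglycans and dystroglycan. Each gene was read from its brightest probe set by mean log2 intensity over the 9 arrays, which was a choice only for Itgad, the 1 member with more than 1 probe set.

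Integrins are cell surface receptors made of an alpha and a beta chain, and the pair decides which matrix protein is bound. Laminins are secreted trimers of an alpha, a beta and a gamma chain, which assemble into the sheet of a basement membrane. Nidogen bridges laminin to type IV collagen, perlecan and agrin carry heparan sulfate chains into the sheet, and dystroglycan is a laminin receptor outside the integrin family. In the early mouse embryo the epiblast sits on such a membrane, and embryonic stem (ES) cells in culture make laminins and hold them with integrins.

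RNA was compared between P19 NTES7, P19 and R1 cells, with 3 arrays for each line. P19 NTES7 is 1 line of ES-like cells, taken from a blastocyst that was cloned by moving P19 nuclei into B6D2F1 oocytes. The sample labels name it only as pluripotent stem cells from P19, and it was read as P19 NTES7 because that is the line in the array tables of the study. P19 is an embryonal carcinoma line, that is, a line of tumour cells that resemble the epiblast, and R1 is an ES cell line from a normal embryo. All 3 lines were kept in ES medium with leukemia inhibitory factor. The P19 NTES7 and R1 cells were grown on mouse embryonic fibroblasts treated with mitomycin C, and P19 was not. The ES cells were collected free of these feeders, per the methods.

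Intensities are deposited on the linear scale after Robust Multichip Average (RMA) normalization, with array medians from 16.5 to 17.5 and a median over all values of 16.9. A gene was called between lines where its limma adjusted p was under 0.01 and its fold was over 2. Replicates 1 and 2 of R1 were the closest pair of arrays. Their log2 values differed with an SD of 0.125 over probe sets, against 0.281 and 0.293 for the other R1 pairs, and averaging them into 1 sample left the number of called genes described below unchanged. The labels call the arrays biological replicates without saying that they came from separate cultures, so the p-values here rest on the spread among these arrays and no more. None of the 9 pluripotency markers had a mean at or below the array median in any line. Pou5f1, the core pluripotency factor, was between 1265 and 1663 in P19 NTES7, between 2071 and 2268 in P19, and between 1372 and 1647 in R1. Zfp42 came closest to the floor, at 25.6, 17.6 and 15.8 in P19. Of the 9 markers, Nanog and Zfp42 were higher and Utf1 was lower in P19 NTES7 than in P19 by the call rule, 3 were lower in P19 than in R1 (Nanog, Zfp42 and Dppa4) and 3 lower in P19 NTES7 than in R1 (Zfp42, Utf1 and Dppa4). The shares of all genes called in these directions were, in the same order, 1.44%, 1.38%, 3.85% and 2.84%.

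Of 22 fibroblast markers, 2 were at or below the array median in P19 NTES7, 14 in P19 and 1 in R1. Their summed intensity was 1443 to 1745 in P19 NTES7, 540.2 to 555 in P19 and 2045 to 2411 in R1. One of them, Bgn, a small matrix proteoglycan, was 106 to 135 in P19 NTES7, 8.59 to 9.18 in P19 and 162 to 199 in R1. In bulk RNA, fewer cells of a type and less RNA per cell cannot be told apart. RMA values have a floor above 0, so a marker at or below the array median cannot be read as absent.

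The sequence just upstream of 4 of the genes is shown here, to set beside their levels below. Itga5, Lama5 and Nid1 were called lower than R1 in both of the other lines and stood above the array median in all lines. Itgb8 was called higher in P19 than in R1. They were chosen after their values were seen. Each window is the 250 bases before the annotated gene start in RefSeq (GRCm38.p6), 5′ to 3′ on the strand of the gene, with the GC box (GGGCGG or CCGCCC, the sequence known from Sp1 sites) in capitals.
Itga5: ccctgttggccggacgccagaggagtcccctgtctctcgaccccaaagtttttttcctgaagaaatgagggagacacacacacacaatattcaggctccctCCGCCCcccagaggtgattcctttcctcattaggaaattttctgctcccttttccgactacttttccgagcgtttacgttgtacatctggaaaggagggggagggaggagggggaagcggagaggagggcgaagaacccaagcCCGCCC
Lama5: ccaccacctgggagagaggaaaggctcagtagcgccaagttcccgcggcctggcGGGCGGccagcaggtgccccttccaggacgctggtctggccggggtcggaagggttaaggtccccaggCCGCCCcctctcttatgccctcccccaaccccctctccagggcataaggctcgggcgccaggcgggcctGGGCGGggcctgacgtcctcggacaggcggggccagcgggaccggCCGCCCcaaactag
Nid1: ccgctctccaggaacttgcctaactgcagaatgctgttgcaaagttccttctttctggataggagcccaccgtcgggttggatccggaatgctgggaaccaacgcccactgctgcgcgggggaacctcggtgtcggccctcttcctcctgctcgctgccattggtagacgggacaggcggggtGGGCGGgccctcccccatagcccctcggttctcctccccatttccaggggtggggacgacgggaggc
Itgb8: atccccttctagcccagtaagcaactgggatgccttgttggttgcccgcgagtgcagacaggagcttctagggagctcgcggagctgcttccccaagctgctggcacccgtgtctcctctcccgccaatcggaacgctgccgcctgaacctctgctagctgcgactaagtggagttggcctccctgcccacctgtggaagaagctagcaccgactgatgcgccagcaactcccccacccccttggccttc

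These windows are chr15:103366792-103367041 (minus strand) for Itga5, chr2:180225860-180226109 (minus strand) for Lama5, chr13:13437352-13437601 (plus strand) for Nid1 and chr12:119238277-119238526 (minus strand) for Itgb8. The Itga5 window held 2 GC boxes, the Lama5 window 4, the Nid1 window 1 and the Itgb8 window 0. The nearest box to the start began at base -6 in Itga5, -14 in Lama5 and -67 in Nid1. The share of G and C was 55.6% in Itga5, 72.4% in Lama5, 64.4% in Nid1 and 62.4% in Itgb8. A GC box stood in 32.7% of all 32851 such windows in the RefSeq table and in 15 of the 32 windows of the 27 member genes with an entry. TATAAA, searched on both strands, was in 12.4% of all windows and in 0 of the 32. TGACTCA, the AP-1 site, also searched on both strands, was in 4.46% of all windows and in 1 of the 32. A match of letters is a description of the window and does not show that a factor binds there.

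Of the 41 members, 17 were above the array median in all lines, 10 were above it in 1 or 2 lines, and 14 were at or below it in every line. The last group held intensities of 6.8 to 16.7 and included most integrins typical of blood cells: Itgal, Itgam and Itgax with their beta chain Itgb2, Itgae, and also the platelet chain Itga2b. It also held Itga4, Itga7, Itga10, Itga11, Itgb6, Lama2, Lamb3 and Lamc3. Near the floor of the array a fold is understated, so a member of this group that was not called says little about its transcript.

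In all, 12 members were called in at least 1 comparison and 29 in none, and 9.37% of all genes were called in at least 1. Between P19 NTES7 and P19, 1 of 41 members was called, lower in P19 NTES7 (Itga6), against 2.83% of all genes called, 1.44% higher and 1.38% lower. Between P19 and R1, 9 members were called, 2 higher in P19 and 7 lower, against 7.31% of all genes, 3.46% higher and 3.85% lower. Between P19 NTES7 and R1, 8 members were called and all were lower in P19 NTES7, against 4.51% of all genes, 1.68% higher and 2.84% lower. Both comparisons with R1 share the R1 arrays and are not independent of each other. The median log2 difference of the members was 0.10 for P19 NTES7 minus P19, -0.37 for P19 minus R1 and -0.06 for P19 NTES7 minus R1. Over all genes these medians were 0.02, -0.02 and 0.01.

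With the fold limit left out and the adjusted p limit kept, more members differed from R1. For P19 minus R1, 19 of 41 members were then lower and 3 higher, against 10.7% and 14.3% of all genes. For P19 NTES7 minus R1, 17 were lower and 5 higher, against 9.44% and 9.23% of all genes. For P19 NTES7 minus P19, 2 were lower (Itga6 and Itgb8) and 6 higher (Itga7, Itga11, Itgb5, Lama3, Lamb2 and Nid1), against 7.25% and 4.89% of all genes. Most of these differences were under 2-fold and are given by name below only for the partner chains and a few others. Among genes above the array median in at least 1 of the 2 lines compared, the shares were larger. For P19 minus R1 they were 16.9% lower and 24.3% higher, against 17 and 3 of 26 such members. For P19 NTES7 minus R1 they were 16.2% and 15.5%, against 17 and 4 of 26 members.

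**Figure D1:**
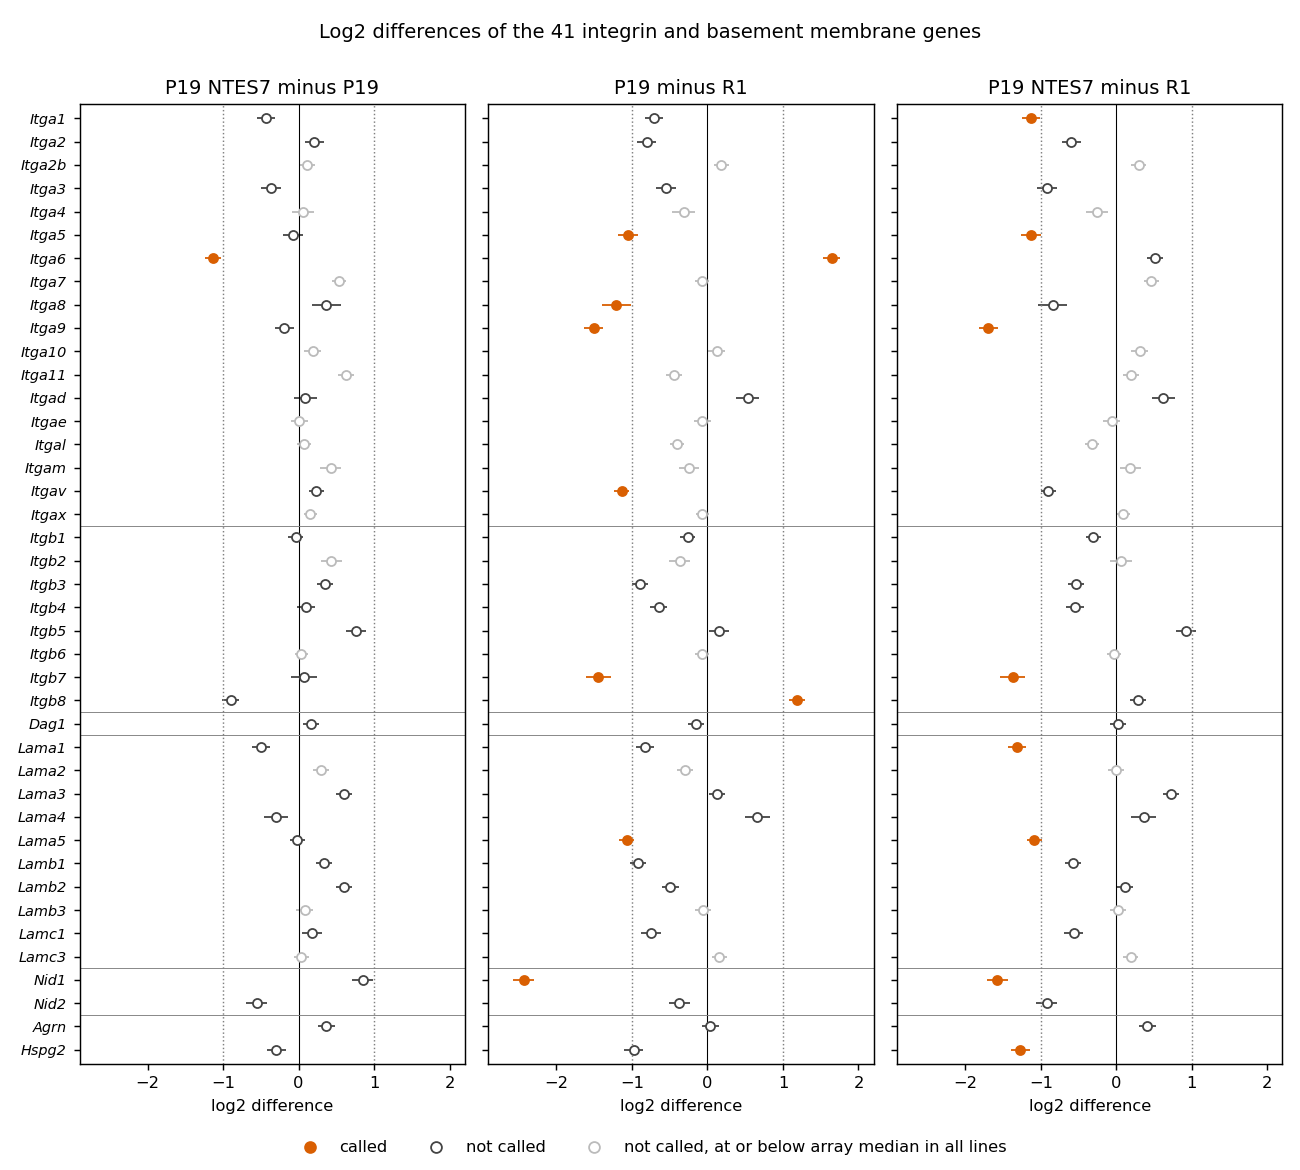
Log2 differences of the 41 genes for P19 NTES7 minus P19 (left), P19 minus R1 (middle) and P19 NTES7 minus R1 (right), with genes down the page in blocks of integrin alpha chains, integrin beta chains, dystroglycan, laminin chains, nidogens and proteoglycans. Points are limma estimates, bars are standard errors, filled points were called (adjusted p under 0.01 and fold over 2), grey points were at or below the array median in all lines, and dotted lines mark a fold of 2. Of the filled points, 1 lies in the left panel, 9 in the middle and 8 on the right, where all are below 0.

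The laminin receptor chain Itga6 had the highest levels of its probe set in P19. Its intensity was 291, 271 and 246 in P19 NTES7, 567, 568 and 635 in P19, and 174, 181 and 212 in R1. No 2 lines overlapped, with P19 on top and R1 at the bottom. The log2 difference was -1.13 (SE 0.11, adjusted p = 8.18e-06) for P19 NTES7 minus P19 and 1.64 (SE 0.11, adjusted p = 6.43e-08) for P19 minus R1. It was the only member called between P19 NTES7 and P19. P19 NTES7 was higher than R1 by 0.51 on the log2 scale (SE 0.11, adjusted p = 0.0031), a fold under 2.

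The beta chains that pair with Itga6 did not share that pattern. Itgb1, the common partner of laminin, collagen and fibronectin receptors, had intensities of 490.2, 466 and 439 in P19 NTES7, 443, 474 and 518 in P19, and 579, 569 and 573 in R1. Its R1 arrays lay above all others, but neither difference from R1 passed (log2 difference -0.26, adjusted p = 0.0488 for P19 minus R1, and -0.30, adjusted p = 0.0312 for P19 NTES7 minus R1). Itgb4, the partner of Itga6 in hemidesmosomes, was near the array floor, at 10.7, 12.5 and 12.3 in P19 NTES7, 9.96, 11.1 and 12.2 in P19, and 15.9, 16.5 and 19.6 in R1. It was lower in P19 than in R1 by a log2 difference of -0.65 (SE 0.12, adjusted p = 0.000647), with a fold under 2.

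Itgb8 was the other member called higher in P19 than in R1. This chain pairs with Itgav, and the pair is known for activating latent TGF-beta. Its intensity was 15.8, 16.2 and 15.45 in P19 NTES7, 32.8, 27.2 and 28.8 in P19, and 14.6, 12.3 and 12.2 in R1. Only the P19 arrays were above the array median. The log2 difference was 1.18 (SE 0.11, adjusted p = 1.24e-06) for P19 minus R1 and -0.90 (SE 0.11, adjusted p = 4.6e-05) for P19 NTES7 minus P19, which is a fold of 1.87 down and thus not called. The Itgb8 window printed above is the 1 of the 4 without a GC box, which 15 of the 32 member windows held. A link between the box and the level was not tested.

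Its alpha partner Itgav, the chain of the vitronectin receptors, ran the other way. Itgav intensity was 84.3, 93.6 and 77.05 in P19 NTES7, 67.8, 72.6 and 76.1 in P19, and 160.3, 159 and 155.5 in R1. The R1 arrays lay far above both other lines, and the P19 arrays lay below all P19 NTES7 arrays. P19 was lower than R1 by a log2 difference of -1.13 (SE 0.10, adjusted p = 9.79e-07) and was called. P19 NTES7 minus R1 was -0.90 (SE 0.10, adjusted p = 1.55e-05), a fold of 1.87 down that was not called.

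Of the other beta chains of Itgav, Itgb5 had its highest intensities in P19 NTES7. They were 207, 174 and 148.5 in P19 NTES7, 93.7, 111 and 104.5 in P19, and 84.5, 87.8 and 106 in R1. The P19 and R1 arrays overlapped and every P19 NTES7 array was above them. The log2 difference was 0.76 (SE 0.13, adjusted p = 0.00109) for P19 NTES7 minus P19 and 0.92 (SE 0.13, adjusted p = 0.00015) for P19 NTES7 minus R1, both with folds under 2. Leaving out P19 NTES7 replicate 3 or R1 replicate 3 took the last to 1.04 and 1.02, calls in both cases. Itgb3, which forms the platelet and osteoclast type of vitronectin receptor, was singled out after its values were seen. It was 13.3 to 14.2 in P19 NTES7, 10.3 to 11.2 in P19, and 17.6 to 22.6 in R1, with a log2 difference of -0.89 (SE 0.11, adjusted p = 1.7e-05) for P19 minus R1.

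**Figure D2:**
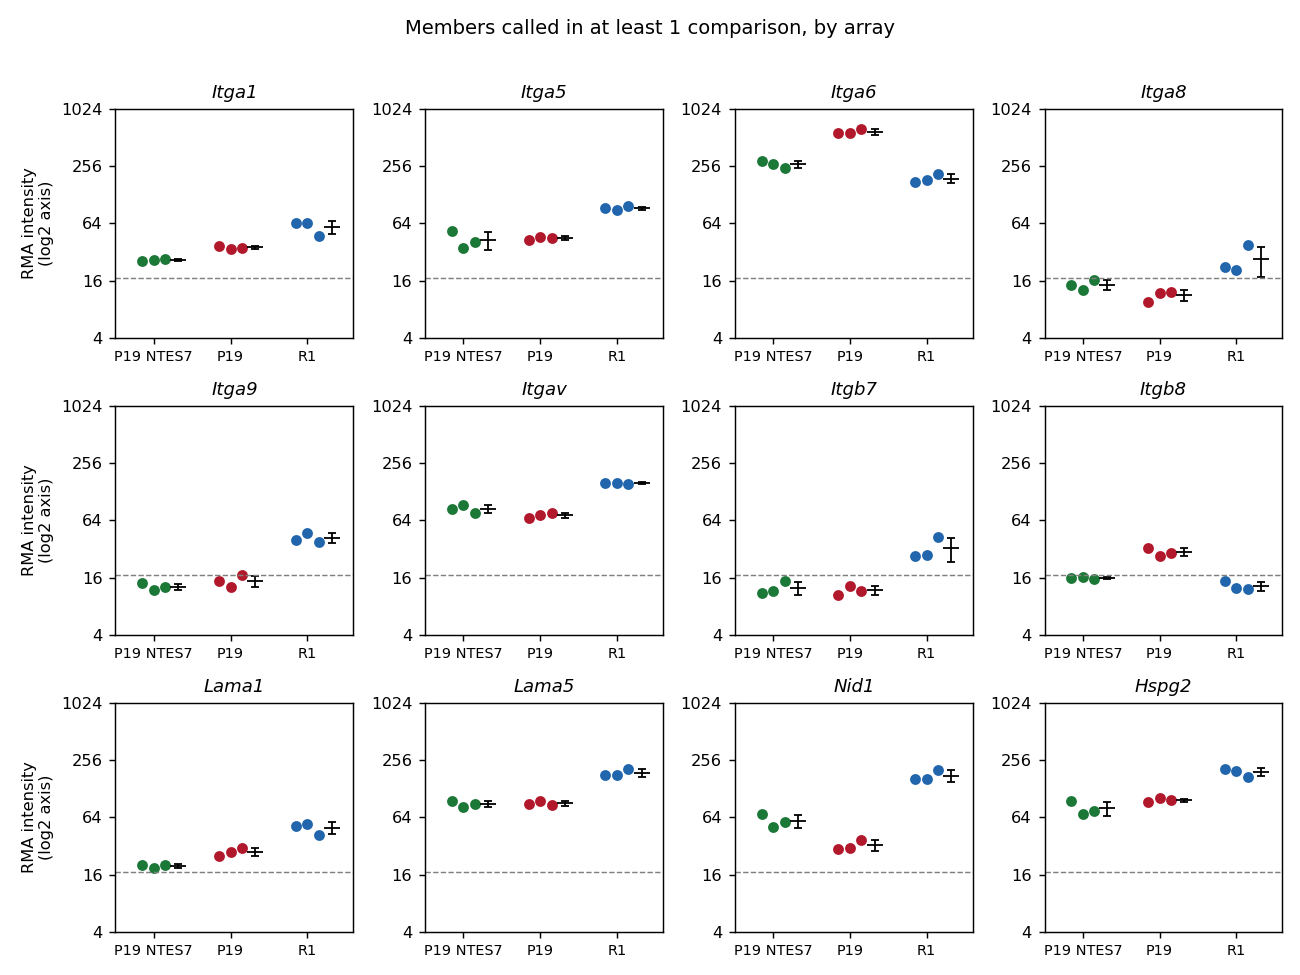
RMA intensity on a log2 axis of the 12 genes called in at least 1 comparison, with P19 NTES7, P19 and R1 from left to right, 1 point per array, the mean with its SD beside the points, and the array median as a dashed line. P19 is the highest line for Itga6 and Itgb8, and R1 is the highest for the other 10 genes.

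Itga5, the fibronectin receptor chain, was called lower than R1 in both other lines. Its intensity was 53.4, 34.8 and 40.9 in P19 NTES7, 42.7, 46.4 and 45.1 in P19, and 91.9, 89.3 and 96.4 in R1. The P19 arrays fell inside the range of the P19 NTES7 arrays, and R1 was apart from both. The log2 difference was -1.05 (SE 0.13, adjusted p = 3.2e-05) for P19 minus R1 and -1.13 (SE 0.13, adjusted p = 2.81e-05) for P19 NTES7 minus R1. Without P19 NTES7 replicate 2, the lowest of its line, the second value was -0.98, so the fold was no longer over 2.

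Itga9, which with Itgb1 binds tenascin C and other ligands, had the largest difference of the alpha chains between P19 NTES7 and R1. The intensity was 13.9, 11.9 and 12.7 in P19 NTES7, 14.6, 12.7 and 16.9 in P19, and 39.5, 47.4 and 38.1 in R1. Only in R1 was its mean above the array median, so the folds may be too small. The log2 difference was -1.70 (SE 0.12, adjusted p = 3.57e-07) for P19 NTES7 minus R1 and -1.50 (SE 0.12, adjusted p = 5.5e-07) for P19 minus R1.

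Itga1, a collagen and laminin receptor chain, was 25.8, 26.1 and 27.3 in P19 NTES7, 37.2, 34.3 and 35.5 in P19, and 64.00, 64.35 and 47.4 in R1. The lines did not overlap and P19 NTES7 was the lowest. It was called for P19 NTES7 minus R1 (log2 difference -1.14, SE 0.12, adjusted p = 9.89e-06). P19 minus R1 was -0.70 (SE 0.12, adjusted p = 0.000396), a fold of 1.63 down.

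Itga2, a collagen receptor chain, and Itga3, a laminin receptor chain, had a mean above the array median only in R1 and were not called. Itga2 was 10.02 to 13.7 in P19 NTES7, 8.72 to 10.5 in P19 and 16.0 to 17.7 in R1, with a log2 difference of -0.81 (SE 0.13, adjusted p = 0.000207) for P19 minus R1. Itga3 was 9.80 to 13.2 in P19 NTES7, 12.7 to 16.0 in P19 and 18.9 to 23.6 in R1. Its log2 difference was -0.92 (SE 0.13, adjusted p = 0.000159) for P19 NTES7 minus R1, and -1.04, a call, without P19 NTES7 replicate 2. Itgad, a leukocyte chain, was 21.6 to 27.9 in P19 NTES7, 21.1 to 24.1 in P19 and 12.15 to 18.55 in R1 on its brighter probe set, which gave a log2 difference of 0.62 (SE 0.15, adjusted p = 0.00721) for P19 NTES7 minus R1. Its second probe set gave -0.105 for the same comparison, so the direction for Itgad depends on the probe set.

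Itga8, whose product binds nephronectin and is needed for kidney development, was 14.3, 12.8 and 16.1 in P19 NTES7, 9.42, 11.9 and 12.2 in P19, and 22.0, 20.6 and 37.5 in R1. The R1 arrays were unequal, with replicate 3 well above the other two. P19 was called lower than R1 (log2 difference -1.21, SE 0.19, adjusted p = 0.000239), but without R1 replicate 3 the difference was -0.94 and the call was lost. P19 NTES7 minus R1 was -0.84 (SE 0.19, adjusted p = 0.0051) and reached -1.003, a call, without R1 replicate 2.

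Itgb7, a beta chain of lymphocyte homing receptors, showed the same unequal R1 arrays. It was 11.0, 11.5 and 14.6 in P19 NTES7, 10.6, 13.0 and 11.6 in P19, and 27.2, 27.5 and 43.2 in R1. It was called for P19 minus R1 (log2 difference -1.44, SE 0.17, adjusted p = 1.68e-05) and for P19 NTES7 minus R1 (-1.38, SE 0.17, adjusted p = 4.24e-05). Its alpha partner Itga4 was at or below the array median in all lines, at 10.2, 12.5 and 14.5 in P19 NTES7, 12.1, 11.0 and 12.3 in P19, and 16.01, 16.7 and 11.8 in R1, and its other partner Itgae was also below it. Of 8 blood cell markers, Cd68 and Lyz2 passed as higher for P19 NTES7 minus P19, 2 were called lower in P19 than in R1 (Cd68 and Laptm5) and 1 lower in P19 NTES7 than in R1 (Laptm5). The shares of all genes called in these directions were 1.44%, 3.85% and 2.84%. The summed intensity of the blood cell markers was 146 to 176 in P19 NTES7, 91.9 to 106 in P19, and 239, 233 and 296 in the R1 arrays. At or below the array median were 4 of the 8 in P19 NTES7, 7 in P19 and 5 in R1. The part of blood cell RNA in the Itgb7 and Itga8 values was not tested.

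Among the laminin chains, Lama5 and Lama1 were called. Lama5 is the alpha chain of the laminins on which human pluripotent cells are commonly grown. Its intensity was 95.6, 82.6 and 88.2 in P19 NTES7, 88.8, 94.9 and 85.5 in P19, and 179.5, 178 and 208 in R1. P19 NTES7 and P19 overlapped, with a log2 difference of -0.02 (SE 0.10, adjusted p = 0.94), and all R1 arrays lay above both. The log2 difference was -1.09 (SE 0.10, adjusted p = 3.79e-06) for P19 NTES7 minus R1 and -1.07 (SE 0.10, adjusted p = 2.3e-06) for P19 minus R1. Without R1 replicate 3 the last value was -0.995, just under the fold limit.

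Lama1 is the alpha chain of the laminin of the earliest embryonic basement membranes. It was 20.4, 18.8 and 20.00 in P19 NTES7, 25.2, 27.7 and 30.6 in P19, and 52.5, 55.1 and 41.3 in R1. The lines did not overlap, and P19 NTES7 was closest to the array median. P19 NTES7 was called lower than R1 (log2 difference -1.32, SE 0.12, adjusted p = 2.76e-06), and P19 minus R1 was -0.83 (SE 0.12, adjusted p = 0.000108), a fold of 1.77 down. P19 NTES7 minus P19 was -0.49 (adjusted p = 0.0106).

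Lamb1 and Lamc1, a beta and a gamma chain found in trimers with Lama1 or Lama5, were lower in both other lines than in R1 by less than 2-fold. Lamb1 was 198, 182.5 and 162.5 in P19 NTES7, 153, 145 and 129.6 in P19, and 261.5, 258 and 288.5 in R1, with a log2 difference of -0.92 (SE 0.11, adjusted p = 1.5e-05) for P19 minus R1. Lamc1 was 354, 247 and 248 in P19 NTES7, 238, 257 and 245 in P19, and 429, 426 and 386 in R1, with a log2 difference of -0.74 (SE 0.13, adjusted p = 0.000553) for P19 minus R1. For P19 NTES7 minus R1 the differences were -0.58 (adjusted p = 0.00119) for Lamb1 and -0.57 (adjusted p = 0.00548) for Lamc1. All R1 arrays of the chains Lama1, Lama5, Lamb1 and Lamc1 stood above those of the other lines.

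Other laminin chains had other orders, and Lamb2, Lama3 and Lama4 were singled out after their values were seen, as were Nid2, Agrn and Dag1 below. Lamb2, the beta chain of synaptic and kidney laminins, was 54.9, 44.5 and 53.1 in P19 NTES7, 30.6, 36.3 and 33.2 in P19, and 45.4, 45.7 and 49.3 in R1. P19 was the lowest, and P19 NTES7 minus P19 was 0.60 on the log2 scale (SE 0.11, adjusted p = 0.00143), a fold of 1.52. Lamb2 can also join Lama5, but its P19 NTES7 and R1 arrays overlapped (log2 difference 0.11, SE 0.11, adjusted p = 0.521). Lama3, an epithelial alpha chain, was 17.4, 19.4 and 19.9 in P19 NTES7, 12.8, 13.0 and 11.5 in P19, and 11.6, 12.4 and 10.3 in R1, and only P19 NTES7 was above the array median. Lama4, the alpha chain of blood vessel laminins, was 33.3 to 36.0 in P19 NTES7, 37.5 to 51.4 in P19 and 22.1 to 35.1 in R1, with a log2 difference of 0.66 (SE 0.16, adjusted p = 0.00604) for P19 minus R1. Lamb3 and Lamc3 passed the adjusted p limit in no comparison (0.194 to 0.916) near the array floor, which does not show that the lines are alike.

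**Figure D3:**
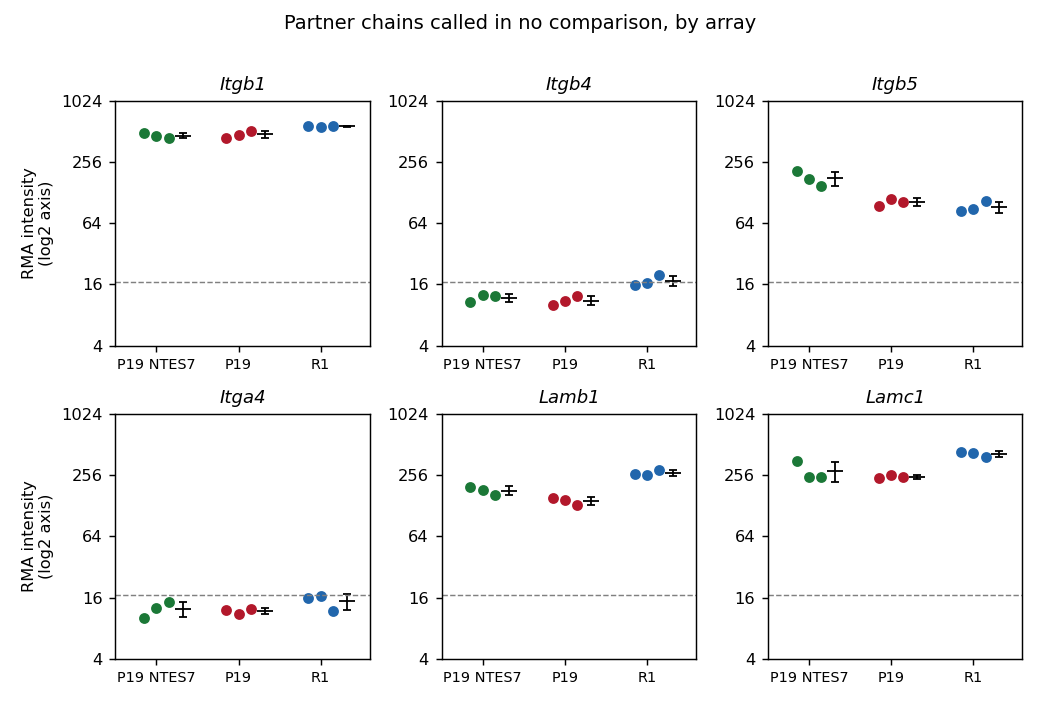
RMA intensity on a log2 axis of 6 chains that pair with called members and were themselves not called, with P19 NTES7, P19 and R1 from left to right, 1 point per array, the mean with its SD beside the points, and the array median as a dashed line. Lamb1, Lamc1 and Itgb1 have all R1 arrays on top, Itgb5 has all P19 NTES7 arrays on top, and Itgb4 and Itga4 lie near the array median or below it.

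Nid1 had the largest difference of all members. Its intensity was 68.8, 50.6 and 56.9 in P19 NTES7, 29.75, 30.5 and 37.3 in P19, and 161, 161.5 and 204 in R1. Means were 58.8 ± 9.26 in P19 NTES7, 32.5 ± 4.17 in P19 and 176 ± 24.6 in R1 (SD, n = 3 each). No lines overlapped, with R1 on top and P19 at the bottom. P19 minus R1 was -2.43 on the log2 scale (SE 0.14, adjusted p = 1.58e-08), a fold of 5.39 down, and P19 NTES7 minus R1 was -1.58 (SE 0.14, adjusted p = 2.02e-06), a fold of 2.99 down. P19 NTES7 was higher than P19 by 0.85 (SE 0.14, adjusted p = 0.000704), a fold of 1.80 that was not called.

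Nid2, the second nidogen, was ordered otherwise and was called in no comparison. It was 268, 182 and 197 in P19 NTES7, 322, 325 and 290.2 in P19, and 428, 425.5 and 361 in R1. P19 NTES7 was the lowest line for Nid2, where P19 was the lowest for Nid1. P19 NTES7 minus R1 was -0.92 (SE 0.14, adjusted p = 0.000195), which became a call without P19 NTES7 replicate 1 or R1 replicate 3 (-1.09 and -1.01), and P19 minus R1 was -0.37 (adjusted p = 0.0543).

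Of the proteoglycans, Hspg2 was lower than in R1 and Agrn was not. Hspg2 was 95.6, 69.3 and 75.1 in P19 NTES7, 93.8, 101 and 96.5 in P19, and 207, 199 and 170.3 in R1. It was called for P19 NTES7 minus R1 (log2 difference -1.27, SE 0.125, adjusted p = 5.61e-06), and P19 minus R1 was -0.98 (SE 0.125, adjusted p = 3.43e-05), a fold of 1.97 down, just under the limit. That value was -1.06 without R1 replicate 3, -1.01 without P19 replicate 2 and -1.05 after quantile normalization of all arrays, a call in each case. Agrn was 109.6, 84.6 and 99.9 in P19 NTES7, 75.6, 81.8 and 69.5 in P19, and 73.4, 69.7 and 77.4 in R1, and no difference passed (adjusted p = 0.0356, 0.826 and 0.0159). Dag1, the receptor that perlecan, agrin and laminin bind, was 65.7 to 81.5 in P19 NTES7, 61.6 to 68.6 in P19 and 65.7 to 76.3 in R1. The Dag1 lines overlapped, with adjusted p of 0.344, 0.337 and 0.935.

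Receptors and ligands were then set side by side. The 27 receptor chains (integrins and Dag1) had 5 members called lower in P19 than in R1 and 2 called higher, and the 14 ligands (laminins, nidogens and proteoglycans) had 2 called lower and 0 higher, against 3.85% of all genes lower and 3.46% higher. Between P19 NTES7 and R1, 4 receptor chains and 4 ligands were called lower and 0 of either higher by limma, against 2.84% of all genes lower and 1.68% higher. At an unadjusted limma p under 0.05, 14 receptor chains and 9 ligands were lower and 3 receptor chains and 1 ligand higher for P19 minus R1, against 20.2% of all genes lower and 23.2% higher. At the same limit, 12 receptor chains and 7 ligands were lower and 7 receptor chains and 3 ligands higher for P19 NTES7 minus R1, against 17.5% of all genes lower and 19.4% higher. The median log2 difference for P19 minus R1 was -0.32 over receptor chains and -0.43 over ligands. For P19 NTES7 minus R1 it was -0.06 over receptor chains and -0.29 over ligands, and for P19 NTES7 minus P19 it was 0.10 and 0.13. For P19 NTES7 minus R1, 15 of the 27 receptor chains and 11 of the 14 ligands were above the array median in at least 1 of these lines. Of these, 10 receptor chains and 7 ligands were lower at an adjusted limma p under 0.01, and 3 and 1 were higher. Among all genes above that median the shares were 16.2% lower and 15.5% higher. The dim chains enter the medians above, and near the floor a difference is understated. The difference between the classes was not tested.

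The arrays were also compared by their order. In 19 of 41 members every R1 array was above every array of both other lines, against 12.3% of all genes. These were 8 integrin alpha chains, 4 beta chains, 4 laminin chains, both nidogens and Hspg2. The reverse, every R1 array below the rest, held for Itga2b, Itga6, Itgad and Itgb8, against 13.7% of all genes. P19 was below both other lines in 12 members, against 9.55% of genes, and above both in 3 (Itga6, Itgb8 and Lama4), against 12.0%. Of the 12, Itga11, Itgal, Itgam, Itgax, Itgb2 and Lama2 were at or below the array median in all lines. The others were Itga8, Itgav, Itgb3, Lamb1, Lamb2 and Nid1. P19 NTES7 was above both in 4 (Agrn, Itga7, Itgb5 and Lama3), against 5.44% of genes, and below both in 3 (Itga1, Lama1 and Nid2), against 6.16%. All these comparisons share arrays.

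Several members followed the order of the fibroblast markers and others did not. Of the 22 fibroblast markers, 12 were called for P19 NTES7 minus P19 (all higher), 17 for P19 minus R1 (all lower) and 4 for P19 NTES7 minus R1 (all lower). The shares of all genes called in these directions were 1.44%, 3.85% and 2.84%. Nid1, Itgav, Lamb1, Itga8, Itgb3 and Itgal had the same order of lines as the summed fibroblast markers, with R1 highest, P19 lowest and no overlap between the arrays of any lines. Of these, Itgal was at or below the array median in all lines. By line means others, such as Lamc1 and Itgb7, had this order too, but their P19 NTES7 and P19 arrays overlapped. The share of all genes with this order was not counted. Itga1, Lama1 and Nid2 were lowest in P19 NTES7, where the summed markers were 1443 to 1745, against 540.2 to 555 in P19. The levels of Itga5 and Lama5 in P19 NTES7 and P19 overlapped. The part of fibroblast RNA in these values was not tested. Of 15 endoderm markers, 1 (Gata6) was called for P19 NTES7 minus P19, where it was higher, and 1 (Thbd) was called lower in P19 and in P19 NTES7 than in R1. The shares of all genes in these directions are those given for the fibroblast markers. The summed intensity of the endoderm markers was 270 to 287 in P19 NTES7, 258 to 271 in P19 and 291 to 296 in R1, with 8, 10 and 7 of the 15 at or below the array median.

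Genes around this receptor and ligand group were described from 4 lists. Of 12 measured ligands of integrins outside the laminin group, 5 were called for P19 NTES7 minus P19 (all higher), 6 for P19 minus R1 (all lower) and 3 for P19 NTES7 minus R1 (all lower). The shares of all genes called in these directions were 1.44%, 3.85% and 2.84%. The median log2 difference of these ligands was 0.57 for P19 NTES7 minus P19, -1.01 for P19 minus R1 and -0.25 for P19 NTES7 minus R1. Tnc (tenascin C), a ligand of the chain Itga9, was 220, 202 and 192 in P19 NTES7, 8.70, 9.77 and 7.74 in P19, and 421, 413.5 and 489.7 in R1. Its log2 difference was 4.56 (SE 0.11, adjusted p = 7.85e-11) for P19 NTES7 minus P19 and -5.66 (SE 0.11, adjusted p = 1.26e-12) for P19 minus R1. Thbs1 (thrombospondin) was 232, 209 and 176.5 in P19 NTES7, 17.9, 16.3 and 14.9 in P19, and 471, 462 and 411 in R1.

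Cdh1 (E-cadherin), the epithelial adhesion protein that Itgae with Itgb7 binds, was 189, 155 and 177 in P19 NTES7, 102, 99.1 and 54.4 in P19, and 456, 445 and 517 in R1. Its log2 difference was -2.52 (SE 0.19, adjusted p = 2.68e-07) for P19 minus R1. Ccn1, a matrix protein that binds Itgav receptors, was 226, 214 and 234 in P19 NTES7, 52.4, 45.6 and 39.8 in P19, and 129.6, 117 and 214 in R1. It had a log2 difference of 2.30 (SE 0.18, adjusted p = 1.55e-06) for P19 NTES7 minus P19. Fn1 (fibronectin), the ligand of the chain Itga5, was singled out after its values were seen. It was 1260, 929.7 and 1006 in P19 NTES7, 446, 469.6 and 426 in P19, and 1356, 1338 and 1549 in R1, so that P19 NTES7 was far above P19 for the ligand while the Itga5 levels of these lines overlapped. Fn1, Tnc and Thbs1 had the line order of the summed fibroblast markers, and the part of fibroblast RNA in their values was not tested.

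Of 15 collagens and partners of the basement membrane, 2 were called for P19 NTES7 minus P19 (1 higher, 1 lower), 3 for P19 minus R1 (1 higher, 2 lower) and 1 for P19 NTES7 minus R1 (lower). The shares of all genes called in these comparisons, both directions together, were 2.83%, 7.31% and 4.51%. Col18a1, the core of a basement membrane proteoglycan collagen, was 39.55, 34.8 and 36.35 in P19 NTES7, 37.7, 34.4 and 32.5 in P19, and 108, 109.6 and 117 in R1. It had the pattern of Lama5 and Itga5, with P19 NTES7 and P19 overlapping and R1 higher. Fbln2, a matrix protein that binds nidogen, was 94.3, 64.03 and 75.1 in P19 NTES7, 17.4, 19.2 and 21.1 in P19, and 130.1, 135 and 135 in R1, in the order seen for Nid1. Pxdn, the peroxidase that crosslinks type IV collagen, ran as Itga6 did, at 121, 116 and 106.5 in P19 NTES7, 253, 254 and 280.3 in P19, and 54.0, 58.9 and 77.1 in R1. The type IV chains Col4a1 and Col4a2, singled out after their values were seen, were not called. Their means were 23.4 and 21.4 in P19 NTES7, 18.9 and 14.9 in P19, and 27.8 and 26.5 in R1. The P19 and R1 arrays of Col4a3, Col4a4, Col4a5 and Col4a6 overlapped.

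Inside the cell, 22 partners of integrins were measured. Between P19 NTES7 and P19, limma called 0 of them against 2.83% of all genes. At an unadjusted limma p under 0.05, 10 of the 22 were lower in P19 NTES7 and 2 higher, against 17.8% and 14.1% of all genes. Among genes above the array median in at least 1 of these 2 lines, the shares were 29.9% and 16.9%. Of the 22 partners, 3 were at or below that median in P19 NTES7 and 4 in P19. Between P19 and R1, 1 was called higher and 1 lower, against 7.31% of all genes in both directions together, and between P19 NTES7 and R1, 3 were called lower, against 2.84% of all genes. Bcar1, a scaffold of focal adhesions, was called higher in P19 than in R1, at 114, 109.9 and 106 in P19 and 59.1, 57.9 and 47.7 in R1. Parvb, a parvin that links integrins to actin, was called lower in P19 NTES7 and in P19 than in R1, at 12.9, 12.9 and 11.6 in P19 NTES7, 11.4, 13.2 and 15.7 in P19, and 40.98, 45.8 and 27.3 in R1. For P19 NTES7 minus R1, Ptk2b, a kinase related to focal adhesion kinase, and Tns3, a tensin, were also called, both lower. The summed intensity of these partners was 2374 to 2711 in P19 NTES7, 3069 to 3200 in P19 and 3042 to 3154 in R1.

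Of 17 measured laminin receptors outside the integrins and partners of dystroglycan, 1 was called higher in P19 than in R1 (Sgce, a sarcoglycan), 2 lower in P19 than in R1 (Sdc4, a syndecan, and Utrn, utrophin), and 1 lower in P19 NTES7 than in R1 (Bcam). The shares of all genes called in these directions were 3.46%, 3.85% and 2.84%. Bcam, a receptor for the Lama5 chain, was 23.4, 22.55 and 19.9 in P19 NTES7, 33.7, 38.1 and 36.3 in P19, and 69.1, 71.1 and 74.6 in R1. Its log2 difference for P19 NTES7 minus R1 was -1.71 (SE 0.10, adjusted p = 3.41e-08). Between P19 NTES7 and P19, limma called 0 of this list, with 4 higher and 3 lower at an unadjusted limma p under 0.05, against 14.1% and 17.8% of all genes.

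**Figure D4:**
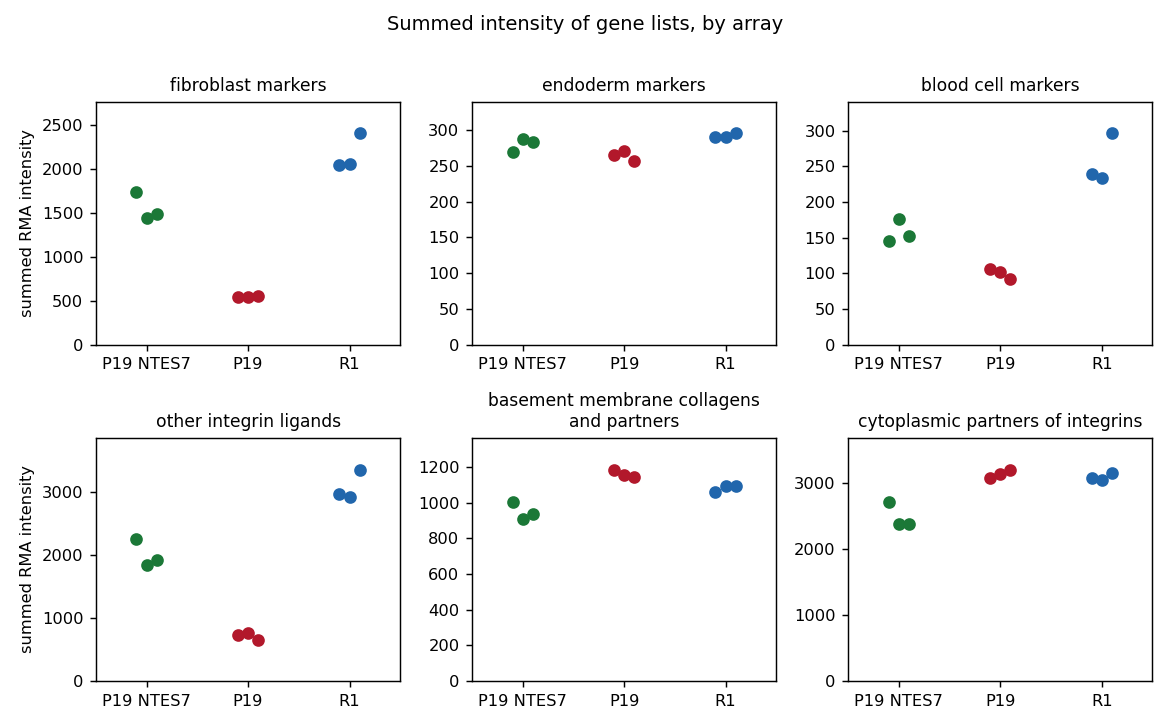
Summed RMA intensity of 6 gene lists on linear axes that start at 0, with P19 NTES7, P19 and R1 from left to right and 1 point per array. The fibroblast markers and the other integrin ligands have P19 lowest and R1 highest, with no overlap between lines. The sums of the basement membrane collagens and partners are highest in P19, where Sparc (mean 534) and Pxdn (mean 262.5), which are not collagens, are the brightest of the list. Col4a1, Col4a2 and Col18a1 are lower in P19 than in R1. The sums of the cytoplasmic partners of integrins are lowest in P19 NTES7.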

How the data were processed

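The deposited intensities of the 9 arrays were used without change. Per the methods, the authors labelled total RNA, hybridised it to the Affymetrix mouse gene array and processed the probe signals by Robust Multichip Average in R/BioConductor. These intensities are on the linear scale. The methods also give a scaling to a set median, which the values do not show.

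Values were taken to log2 and all 28853 probe sets entered 1 limma fit (limma 3.58.1 in R 4.3.3) of line means over 9 arrays, with variances moderated by eBayes. Adjusted p-values are Benjamini-Hochberg values over all probe sets of a comparison, and errors are SDs over arrays or limma standard errors. A gene was called where its adjusted p was under 0.01 and its fold was over 2, the limits of the methods, which applied them with a one-way ANOVA. The platform annotation gave 21789 probe sets 1 symbol, 1621 several and 5443 none, and only the first were named. The number of arrays limits the precision.

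The members, the lists and the marker genes were chosen with earlier results of these data known. All members were named, with every array given for the called ones and for 6 partner chains. From each related list, up to 4 called genes with the largest differences were named. Alternatives were quantile or median scaling, a filter on dim probe sets, other variance models, the ANOVA, fits of only the lines compared, no fold limit, a looser adjusted p limit, the second probe set, a replicate block, and leaving out each array.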

Additional observations from a re-analysis of the deposited data

How the results depend on the processing

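With no fold limit the number of called members was 8 for P19 NTES7 against P19, 22 for P19 against R1 and 22 for P19 NTES7 against R1, in place of 1, 9 and 8. In the other settings that keep all arrays the counts were 1, 8 to 10 and 8. Leaving out each array gave 1 to 1, 8 to 10 and 8 to 10. Over the 18 called differences, 197 of 198 values in the settings that keep all arrays kept their direction and their call. The exception was Itga8 for P19 against R1, whose ANOVA adjusted p was 0.0325. With no fold limit or the looser adjusted p limit, called differences could not change. These settings keep the main fit and only loosen a limit, so their values say nothing of robustness. The ANOVA also called 0 cytoplasmic partners and 0 other laminin receptors between P19 NTES7 and P19, and 0 members higher in P19 NTES7 than in R1. Leaving out an array kept 159 of 162 such values. The exceptions were Itga5 for P19 NTES7 against R1 (-1.29 to -0.98), and Itga8 (-1.37 to -0.94) and Lama5 (-1.11 to -0.995) for P19 against R1. Leaving out an array of the line not compared cannot move a log2 difference, only its p-value. The replicate block, which uses the replicate numbers as pairs, left the counts at 1, 9 and 8. Same-numbered arrays of different lines had correlations of their deviations from -0.223 to 0.0403, and differently numbered ones from -0.15 to 0.207. These values gave no sign that the replicate numbers mark pairs. They cannot show whether arrays shared handling, because deviations from a mean of 3 arrays are tied to each other.

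Only differences that were not called changed sign, and the cause was not tested. For P19 NTES7 minus P19, quantile normalization gave -0.0111 for Itgb7, 0.067 for Lama5, -0.0214 for Itga4 and 0.0371 for Itgb1. It gave -0.0244 for Agrn in P19 minus R1. Centring arrays on their median gave -0.0045 for Dag1 in P19 NTES7 minus R1. The second probe set of Itgad gave -0.16 for P19 minus R1 and -0.105 for P19 NTES7 minus R1. Leaving out an array gave ranges that crossed 0 for P19 NTES7 minus P19 in Itga5 (-0.24 to 0.0643), Itgb7 (-0.0582 to 0.15), Lama5 (-0.0707 to 0.0344), Itga4 (-0.0636 to 0.19), Itgad (-0.0302 to 0.16) and Itgb1 (-0.0932 to 0.0192). The same held for Agrn in P19 minus R1 (-0.0184 to 0.0995) and Dag1 in P19 NTES7 minus R1 (-0.0612 to 0.0946). Scaling moved the median of all probe sets by under 0.1 on the log2 scale. Averaging R1 replicates 1 and 2 as 1 sample, chosen after seeing the data, left the counts at 1, 9 and 8. Signal near the array floor limits the 14 members at or below the array median in all lines.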
